A study of Homo sapiens with 12 samples.

Results

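Transcripts of the MYC network were followed through 10 of the 62696 genes counted in HER2 breast cancer cell lines. The genes were the 3 MYC proteins MYC, MYCN and MYCL, their shared partner MAX, the MAX-binding repressors MXD1, MXD4, MXI1 and MNT, and the MYC interactors CDCA7 and CDCA7L. They were chosen by name for their place in the network, and selected on the measured changes with TWEAK in these same libraries, among which the low CDCA7L stood out. Their changes with TWEAK are therefore given as a description, with no p-value, and a call of a member there says only on which side of the threshold used for all genes it fell. All 10 passed the filter on low counts in every comparison made.

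TWEAK is a cytokine of the TNF superfamily that signals through the receptor Fn14. Poly-A RNA was sequenced from 2 established HER2 lines, SKBR3 and MDA-MB-453, each as 3 untreated and 3 TWEAK-treated replicates, 12 libraries in 4 groups. Per the labels, cells were starved for 8 h in Opti-MEM and then given 10 ng/ml TWEAK, which was renewed after 24 h, over 48 h in all. The same protocol text stands beside the untreated replicates in the labels, with no mention of a vehicle. Each side of a comparison between the lines is 1 line, so the line and any batch cannot be told apart. The study calls its replicates biological, and p-values refer to the spread between such cultures of 1 line.

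Total counts lay between 24773003 and 35208304 per library. SKBR3 TWEAK replicate 2 lay farthest from the other replicates of its group, with a root mean square difference of 0.369 in log2 CPM beside 0.259 to 0.309 in the other libraries. Of the luminal epithelial markers, EPCAM, KRT8, KRT18, KRT19 and ERBB2 were high in all libraries, and the summed level of the 6 markers was 18134 to 22378 CPM (counts scaled per library to a common total) in SKBR3, against 3058 to 3272 CPM in MDA-MB-453. CDH1, which encodes E-cadherin, reached 0.290 CPM at most in SKBR3. The 5 leukocyte markers summed to 1.48 CPM at most, and the 5 fibroblast markers to 17.5 to 21.0 CPM in SKBR3, against 107 to 123 CPM in MDA-MB-453, nearly all of it COL1A1. The 4 endothelial markers summed to 3.93 to 5.14 CPM in untreated and 6.43 to 7.72 CPM in TWEAK-treated SKBR3 as CDH5 rose from 1.74 ± 0.17 to 4.21 ± 0.77 CPM (SD, n = 3, edgeR adjusted p = 8.55e-04), while VWF was at 2.28 to 3.20 CPM and at 2.61 to 2.79 CPM, KDR at 0.0825 CPM at most and PECAM1 at 0.0809 CPM at most. KRT19 rose in SKBR3 from 3739 ± 208 to 4685 ± 622 CPM (edgeR adjusted p = 0.061). That call was lost at an adjusted p of 0.05, with the replicate number as a block, and without SKBR3 untreated replicate 1 or 2. EPCAM was at 306 to 318 CPM in untreated and at 263 to 295 CPM in treated SKBR3 and was not called. The part of these genes in the results below was not tested.

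MYC proteins bind DNA only as dimers with MAX, at E-boxes, and MYC-MAX dimers activate genes of ribosome biogenesis, nucleotide synthesis and the cell cycle. MXD1, MXD4, MXI1 and MNT compete for MAX and bring SIN3-HDAC corepressors to the same E-boxes, so the balance between both kinds of dimer, and not MYC alone, is what is usually considered. CDCA7, a MYC- and E2F-responsive gene, encodes a zinc finger protein that binds MYC and recruits the chromatin remodeller HELLS. CDCA7L (also named JPO2 or R1) is its paralog, binds MYC and PSIP1, and represses MAOA.

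The sequences upstream of CDCA7L and CDCA7 are shown because CDCA7L was called with TWEAK in both lines and CDCA7 in SKBR3. They are RefSeq promoter sequence of the GRCh38.p14 assembly, trimmed so that they end at the annotated start of the gene, and they run 5′ to 3′ on the strand of the gene. CDCA7 lies on the plus strand, and its window is chr2:173354622-173354819 (198 bases), in which capitals mark the only match to any motif searched.
CDCA7: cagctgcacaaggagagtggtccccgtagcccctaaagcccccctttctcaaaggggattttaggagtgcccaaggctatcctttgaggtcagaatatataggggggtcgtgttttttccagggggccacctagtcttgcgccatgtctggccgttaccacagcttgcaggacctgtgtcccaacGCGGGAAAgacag
CDCA7L lies on the minus strand, and its window is chr7:21945904-21946149 (246 bases), in which no motif searched was found.
CDCA7L: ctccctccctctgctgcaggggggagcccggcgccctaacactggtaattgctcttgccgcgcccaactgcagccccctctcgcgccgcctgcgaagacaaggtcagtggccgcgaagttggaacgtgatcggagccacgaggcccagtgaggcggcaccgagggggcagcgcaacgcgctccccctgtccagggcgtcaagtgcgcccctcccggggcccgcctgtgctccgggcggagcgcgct
The motifs were CACGTG, the E-box of MYC and MAX, TTTCCCGC, a site bound by E2F factors, TGANTCA, the AP-1 site, and the NF-κB consensus. They were searched on both strands in the 250 bases before the RefSeq start. Of 27303 promoters, 6.49% held the E-box, 1.42% the E2F letters, 6.60% the AP-1 site and 9.57% the NF-κB consensus. The capitals in CDCA7 are the E2F letters read on the other strand, and they begin 65 bases before the RefSeq start. MXD4 and MNT each held 1 E-box, 238 and 193 bases before their starts. By symbol, 9 of the 10 members had an entry, all but MYC, and the other 6 held none of the 4 motifs. These are matches of letters, and binding was not measured in these libraries.

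CDCA7L stood at 4.02-fold lower RNA in TWEAK-treated than in untreated SKBR3 cells, and CDCA7 at 1.24-fold lower, while the 8 MYC, MAX, MXD and MNT genes were not called in either direction. In MDA-MB-453 only CDCA7L was called, at 1.27-fold lower. With edgeR's quasi-likelihood test at an adjusted p of at most 0.1, 10.4% of the 15661 genes tested in SKBR3 and 1.49% of the 14929 tested in MDA-MB-453 were called, and nothing is read from the members' counts of 2 and 1 since the members were listed with these contrasts known. The members' median log2 fold change in SKBR3 was -0.017, beside -0.0074 over all genes tested. Their median in MDA-MB-453 was 0.025, beside 0.0016 over all genes.

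**Figure D1:**
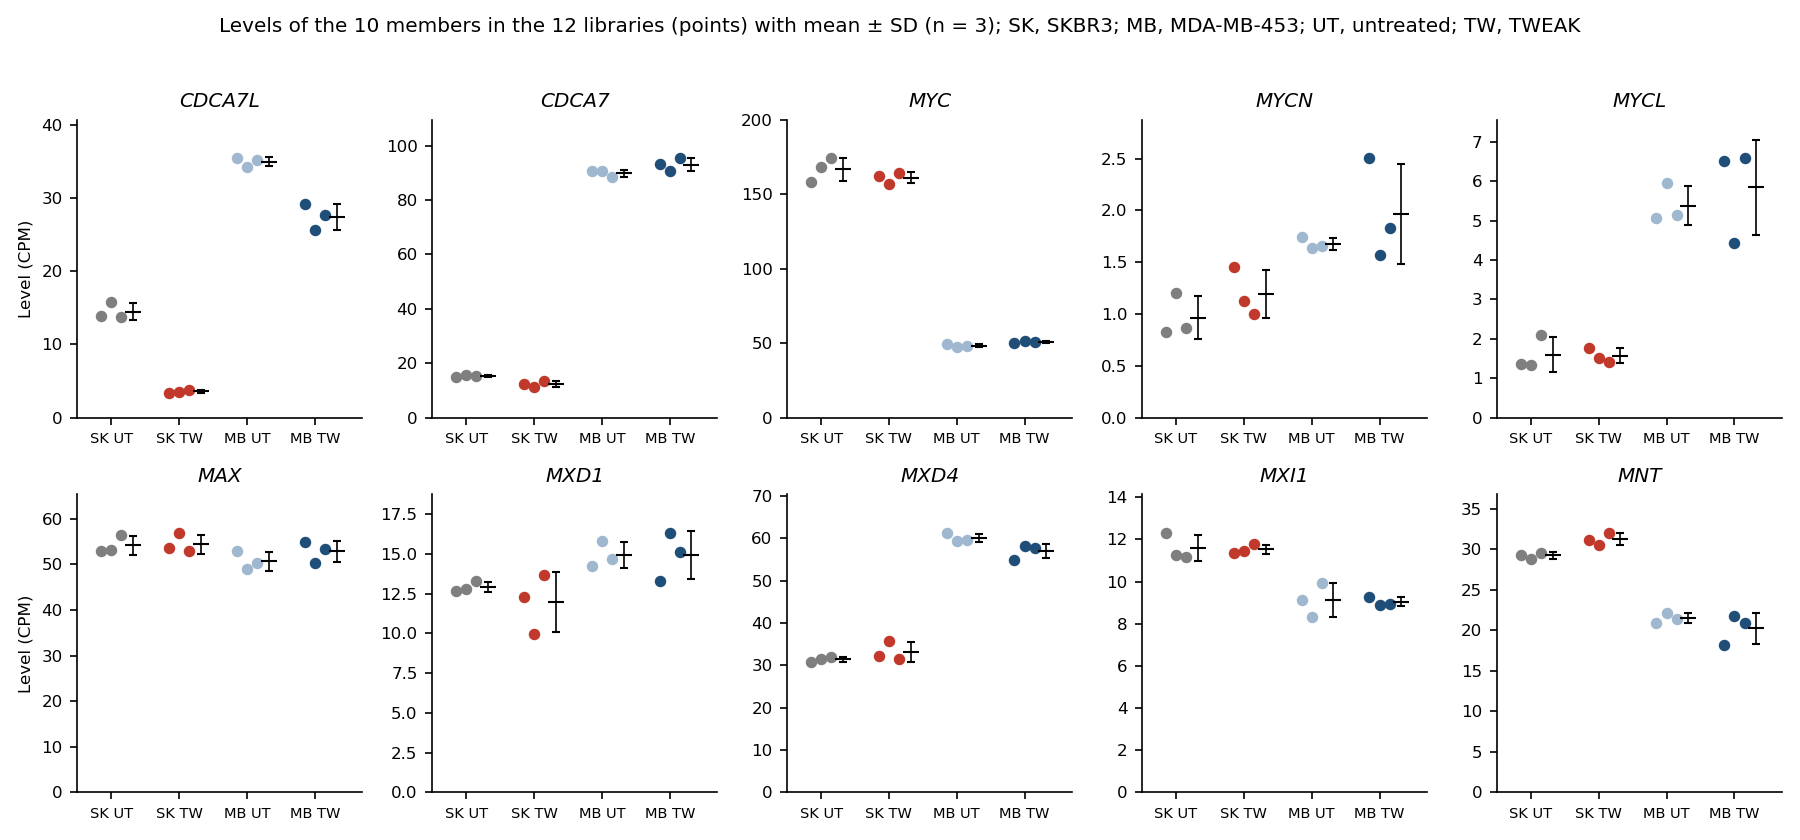
Level of each of the 10 genes (vertical axis, CPM, linear from 0) in the 12 libraries (points), by group on the horizontal axis, with the mean and SD of the 3 replicates beside them. The 3 TWEAK-treated SKBR3 libraries sit between 3.44 and 3.84 CPM of CDCA7L, below the untreated ones at 13.7 to 15.8 CPM, while MYC, MAX, MXD1, MXD4 and MXI1 overlap between these groups.

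CDCA7L (ENSG00000164649.20, chr7:21900899-21945903, minus strand, GRCh38) had 387, 381 and 332 counts in the untreated SKBR3 replicates, or 13.9, 15.8 and 13.7 CPM. With TWEAK it had 85, 88 and 92 counts, or 3.44, 3.53 and 3.84 CPM. The groups lay far apart, and the highest treated library was under the lowest untreated one. The log2 fold change was -2.01 with a standard error of 0.11 and a 95% interval of -2.24 to -1.77, the second lowest of the 15661 genes tested. In bulk libraries, fewer cells with CDCA7L RNA and less of it per cell cannot be told apart.

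In MDA-MB-453, CDCA7L started higher, at 35.4, 34.2 and 35.2 CPM in untreated cells. It was at 29.1, 25.6 and 27.6 CPM with TWEAK, from 756, 686 and 1012 counts in libraries of unequal depth. Again no treated library reached the untreated range. The log2 fold change was -0.35 (SE 0.053, 95% interval -0.46 to -0.23). Treated MDA-MB-453 libraries held more CDCA7L than any untreated SKBR3 library.

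Of the exonic bases of CDCA7L, 21.4% are shared with DNAH11, a dynein heavy chain gene on the opposite strand, and no source used here says whether reads were counted by strand. DNAH11 had 29, 9 and 11 counts in untreated SKBR3 and 29, 29 and 53 with TWEAK. In MDA-MB-453 its counts ran from 1 to 12 over the 6 libraries. DNAH11 was called higher with TWEAK in SKBR3 (log2 fold change 1.23, SE 0.39, adjusted p = 0.096), a call lost at an adjusted p of 0.05 and without SKBR3 untreated replicate 2 or 3 or TWEAK replicate 3. The part of reads shared by both genes in the values of CDCA7L was not tested.

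CDCA7 (ENSG00000144354.15, chr2:173354820-173368997, plus strand) shares no exonic base with another gene. Its levels were 14.9, 15.7 and 15.5 CPM in untreated SKBR3 and 12.4, 11.1 and 13.6 CPM with TWEAK. The 3 treated libraries lay below the 3 untreated ones, and the groups did not overlap. The log2 fold change was -0.32 (SE 0.089, 95% interval -0.51 to -0.12). The call was lost with the replicate number as a block and at an adjusted p of 0.05. It was also lost without any 1 of SKBR3 untreated replicates 1, 2 and 3 and TWEAK replicate 1, with log2 fold changes of -0.38 to -0.24 when 1 library was left out.

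In MDA-MB-453, CDCA7 was at 90.6, 90.6 and 88.4 CPM in untreated cells and 93.1, 90.6 and 95.2 CPM with TWEAK. The treated libraries were at or just above the untreated ones, and the log2 fold change was 0.05 (SE 0.038, 95% interval -0.03 to 0.13). Per base of exon, CDCA7 stood at 0.883 ± 0.056 of CDCA7L (SD, n = 3) in untreated SKBR3 and at 2.85 ± 0.20 times CDCA7L with TWEAK. In MDA-MB-453 that ratio was 2.13 ± 0.058 and 2.82 ± 0.15, so the treated groups of both lines lay side by side, with overlapping values.

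The difference between the lines in the change with TWEAK, tested as their interaction in 1 model of the 12 libraries, was -1.65 for CDCA7L on the log2 scale (SE 0.11, 95% interval -1.90 to -1.41). For CDCA7 it was -0.36 (SE 0.091, 95% interval -0.55 to -0.17). These were the only 2 members called there, where 3.37% of 17201 genes were called by edgeR, 2.36% with a higher and 1.01% with a lower change in SKBR3, and nothing is read from that count either. For CDCA7 the call was lost with the replicate number as a block. It was also lost without SKBR3 untreated replicate 2, without MDA-MB-453 untreated replicate 2 or 3, or without MDA-MB-453 TWEAK replicate 3, with differences of -0.43 to -0.30 when 1 library was left out.

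**Figure D2:**
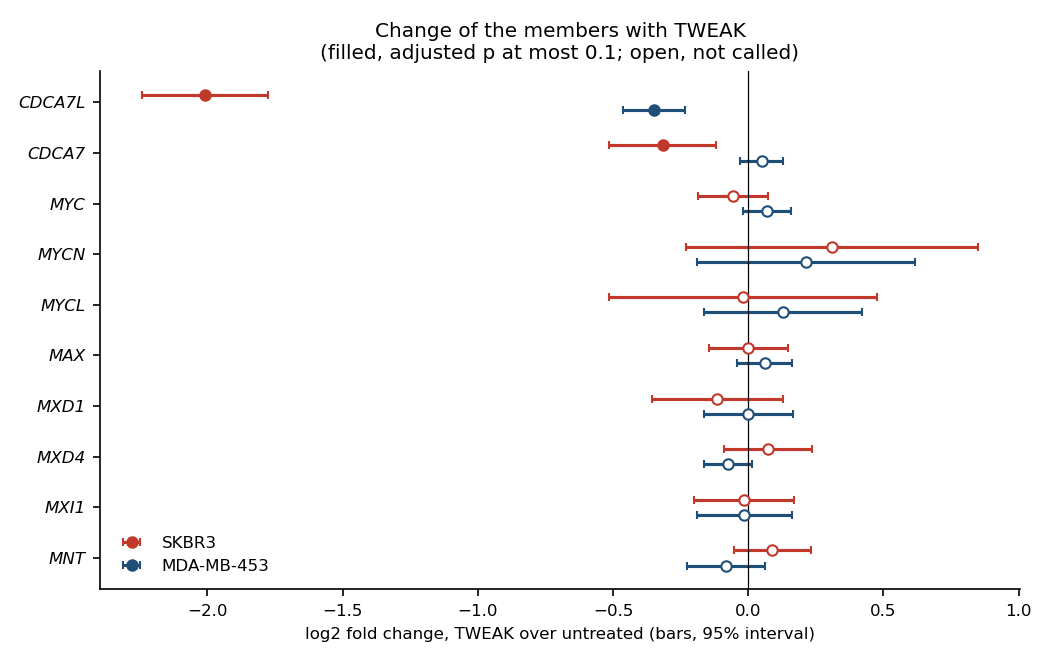
Log2 fold change of each gene, TWEAK over untreated (horizontal axis), with its 95% interval (bars) in SKBR3 and MDA-MB-453. Filled points mark genes called at an adjusted p of at most 0.1 by edgeR. CDCA7L in SKBR3 lies at -2.01, apart from all other points, which run from -0.35 to 0.31, and MYCN and MYCL have the widest intervals.

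MYC (ENSG00000136997.21, chr8:127735434-127742951, plus strand) was at 158, 168 and 174 CPM in untreated SKBR3 and at 162, 157 and 164 CPM with TWEAK. The groups overlapped, with a log2 fold change of -0.06 (SE 0.059, 95% interval -0.18 to 0.07). In MDA-MB-453 MYC was at 49.5, 47.7 and 48.2 CPM in untreated and at 50.0, 51.8 and 50.9 CPM in treated cells. There every treated library was above every untreated one, by a log2 fold change of 0.07 (SE 0.042, 95% interval -0.02 to 0.16), and the gene was not called. An absolute log2 fold change of 1 lies outside both intervals.

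MYCN and MYCL, the paralogs best known from neural and lung tumours, were rare transcripts here. MYCN (ENSG00000134323.13, chr2:15940550-15947007) had 21 to 29 counts in untreated and 24 to 36 counts in treated SKBR3, and 42 to 67 counts over the 6 MDA-MB-453 libraries. MYCL (ENSG00000116990.11, chr1:39895428-39902256) had 32 to 51 counts in SKBR3 and 119 to 241 in MDA-MB-453. At this depth their log2 fold changes with TWEAK had 95% intervals of -0.23 to 0.85 (MYCN) and -0.51 to 0.47 (MYCL) in SKBR3, and of -0.19 to 0.62 and -0.16 to 0.42 in MDA-MB-453. Neither paralog came near the counts of MYC in any library.

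MAX (ENSG00000125952.20, chr14:65006174-65102695), the dimer partner shared by the MYC, MXD and MNT proteins, was at 52.8, 53.2 and 56.5 CPM in untreated SKBR3 and 53.5, 56.8 and 52.9 CPM with TWEAK. In MDA-MB-453 it was at 52.8, 48.9 and 50.2 CPM and at 54.9, 50.3 and 53.3 CPM. Both pairs of groups overlapped, with log2 fold changes of 0.00 (95% interval -0.14 to 0.15) and 0.06 (95% interval -0.04 to 0.16). MAX shares 13.1% of its exonic bases with FNTB, a farnesyltransferase subunit gene read from the other strand, which had 264 to 395 counts per library beside 1266 to 1955 of MAX.

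Of the repressors, MNT (ENSG00000070444.15, chr17:2384073-2401104) was at 29.3, 28.8 and 29.6 CPM in untreated SKBR3 and 31.1, 30.5 and 31.98 CPM with TWEAK. These groups did not overlap, by a log2 fold change of 0.09 (SE 0.065, 95% interval -0.05 to 0.23). In MDA-MB-453 MNT overlapped between the groups, at 20.9, 22.1 and 21.4 CPM and at 18.1, 21.8 and 20.9 CPM. MNT was not called in either line. It shares 12.2% of its exonic bases with a long non-coding RNA gene on the opposite strand, while MYC, MYCN, MYCL, MXD1, MXD4 and MXI1 share 4.55% at most with any 1 other gene.

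MXD4 (ENSG00000123933.17, chr4:2247432-2262109) was at 30.8, 31.5 and 32.01 CPM in untreated SKBR3 and 32.3, 35.8 and 31.4 CPM with TWEAK, with overlap. In MDA-MB-453 it was at 61.2, 59.3 and 59.7 CPM and at 55.0, 58.2 and 57.8 CPM, with each treated library below each untreated one and a log2 fold change of -0.07 (SE 0.042, 95% interval -0.16 to 0.02). MXD1 (ENSG00000059728.11, chr2:69897688-69942945) lay at 9.98 to 13.7 CPM over the 6 SKBR3 libraries, where TWEAK replicate 2 was the lowest, and at 13.3 to 16.3 CPM over those of MDA-MB-453. MXI1 (ENSG00000119950.21, chr10:110207605-110287365) lay at 11.2 to 12.3 CPM in SKBR3 libraries and at 8.31 to 9.91 CPM in those of MDA-MB-453. Treated and untreated groups of MXD1 and MXI1 overlapped in both lines, and no MXD gene was called.

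Groups did not overlap for 3 members in SKBR3 (MNT, CDCA7 and CDCA7L), where this held for 26.5% of all genes tested. It held for 4 members in MDA-MB-453 (MYC, MXD4, CDCA7 and CDCA7L), beside 15.1% of genes, and nothing is read from either count.

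At rest the lines differed in the make-up of the network. Untreated SKBR3 cells had 3.45-fold more MYC RNA than untreated MDA-MB-453 cells, and the MDA-MB-453 cells had 5.84-fold more CDCA7, 3.37-fold more MYCL and 2.41-fold more CDCA7L. All 10 members passed the test between the untreated lines, 4 higher and 6 lower in SKBR3, and so did 87.2% of the 16315 genes tested, so the count of members is near the background. With an absolute log2 fold change of at least 1 as well, 4 of 10 members and 42.5% of all genes were called. The untreated groups did not overlap for 9 members, all but MAX, and for 85.3% of all genes.

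The log2 fold change of MYC, SKBR3 over MDA-MB-453, was 1.79 (SE 0.046, adjusted p = 1.65e-22, edgeR). It was higher in all 3 SKBR3 libraries than in any of the 3 of MDA-MB-453. MNT was higher in SKBR3 by 0.45 (SE 0.057, adjusted p = 6.82e-08) and MXI1 by 0.35 (SE 0.086, adjusted p = 5.26e-04). MAX differed by 0.10 (SE 0.050, adjusted p = 0.062), a call that 6 of 14 alternatives lost and that turned to -0.20 with an offset for GC content and exon length. Under that offset MNT was at 0.08 and no longer called.

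CDCA7 was lower in SKBR3 than in MDA-MB-453, with a log2 fold change of -2.55 (SE 0.053, adjusted p = 1.86e-24), and CDCA7L with one of -1.27 (SE 0.063, adjusted p = 3.91e-16). MYCL was at -1.75 (SE 0.16, adjusted p = 1.41e-10) and MYCN at -0.80 (SE 0.21, adjusted p = 0.00116), both from the low counts given above. The repressors MXD4 and MXD1 were at -0.93 (SE 0.050, adjusted p = 1.74e-15) and -0.20 (SE 0.073, adjusted p = 0.0125). These 6 genes kept their sign and stayed called in all 14 alternatives.

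**Figure D3:**
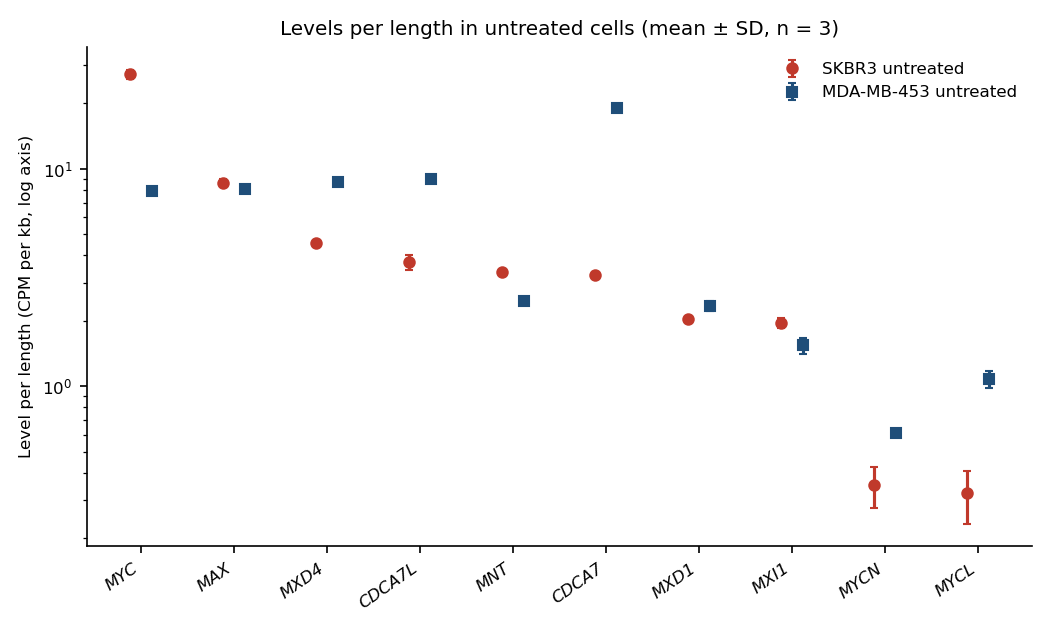
Level per length (vertical axis, CPM per kb of exon, log axis) of the 10 genes in untreated SKBR3 and untreated MDA-MB-453 cells (mean and SD, n = 3). MYC leads in SKBR3 at 27.3 CPM per kb, and CDCA7 leads in MDA-MB-453 at 19.1 CPM per kb, while MAX is at 8.66 and 8.09 CPM per kb.

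Per length of exon, the order of the members in untreated SKBR3 began with MYC at 27.3 ± 1.3 CPM per kb (SD, n = 3), followed by MAX at 8.66 ± 0.33, MXD4 at 4.57 ± 0.091 and CDCA7L at 3.71 ± 0.29. MNT at 3.36 ± 0.045 and CDCA7 at 3.27 ± 0.089 were next and overlapped each other. MXD1 (2.03) and MXI1 (1.96) overlapped, as did MYCN (0.350) and MYCL (0.322) at the bottom of the order. With TWEAK, CDCA7L moved from the fourth to the eighth place in SKBR3, at 0.925 ± 0.054 CPM per kb, between MXD1 and MYCN.

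In untreated MDA-MB-453 the order began with CDCA7 at 19.1 ± 0.27 CPM per kb. CDCA7L (8.97 ± 0.16) and MXD4 (8.74 ± 0.15) came next and overlapped, followed by MAX (8.09 ± 0.32) and MYC (7.93 ± 0.15), which overlapped as well. MNT (2.47) and MXD1 (2.35) overlapped, and MXI1 (1.54), MYCL (1.08) and MYCN (0.610) followed, each below the range of the one before. With TWEAK, CDCA7L was in the fifth place at 7.05 ± 0.45 CPM per kb, below MAX, MYC and MXD4.

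The level of MYC divided by the summed level of MXD1, MXD4, MXI1 and MNT, per length, was 2.29 ± 0.10 (SD, n = 3) in untreated SKBR3 and 0.525 ± 0.0094 in untreated MDA-MB-453. With TWEAK it was 2.15 ± 0.046 in SKBR3, where 1 of the 3 treated libraries lay within the untreated range and 2 below it, and 0.575 ± 0.017 in MDA-MB-453, where each treated library was above each untreated one. MYC stood at 3.15 ± 0.083 times MAX in untreated SKBR3 and at 0.981 ± 0.021 times MAX in untreated MDA-MB-453. These ratios are of RNA levels, and protein was not measured in these libraries. The ratios and orders between genes, that of CDCA7 to CDCA7L included, rest on the union of annotated exons. They carry no correction for GC content.

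Around the members, lists of known partners, regulators and targets were described by their counts. These lists were also chosen with earlier results known, so the p-values of their genes are a description and not independent tests. Of all genes tested, edgeR called 6.60% higher and 3.82% lower in SKBR3, and 1.29% higher and 0.208% lower in the other line, at an adjusted p of at most 0.1.

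Of the other MAX and MLX network (MGA, MXD3, MLX, MLXIP and MLXIPL), none of 5 genes tested in SKBR3 and none of 4 in MDA-MB-453 was called, with none at an unadjusted p under 0.05 and none called by DESeq2, but 1 was called lower in MDA-MB-453 without TWEAK replicate 2. Of 20 MYC cofactors and MXD corepressors, such as TRRAP, WDR5 and SIN3A, none was called in either line by edgeR or DESeq2. In SKBR3, 3 of them had an unadjusted p under 0.05 and a higher level, and in MDA-MB-453 1 was higher and 2 lower at that p. Without SKBR3 TWEAK replicate 2, 4 were called higher and 1 lower in SKBR3, where all genes then had 1589 higher and 1191 lower. Without MDA-MB-453 TWEAK replicate 2, 2 were called higher and 6 lower there, where all genes then had 1003 higher and 1098 lower. With all 12 libraries in 1 fit, 2 were called higher in SKBR3.

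Of 12 genes of MYC protein turnover, such as FBXW7 and the deubiquitinase USP28, 1 was called in SKBR3 and none in MDA-MB-453, where 3 were lower at an unadjusted p under 0.05. The 1 called was FBXO32, an F-box ubiquitin ligase subunit, which was at 142 ± 1.9 CPM in untreated and 162 ± 5.8 CPM in treated cells (SD, n = 3, log2 fold change 0.19, SE 0.056, adjusted p = 0.069). That call was lost in 8 of 14 alternatives. In MDA-MB-453 FBXO32 had a log2 fold change of -0.19 (SE 0.061) and was not called. The difference between the lines was 0.38 (SE 0.082, edgeR adjusted p = 0.016). In SKBR3 the list had 2 lower with no filter or with the offset for GC content and exon length, 1 lower with all 12 libraries in 1 fit, and 2 higher and 1 lower without TWEAK replicate 2. All genes there had 1648 lower with that offset, 1068 in 1 fit and 1191 without TWEAK replicate 2. In MDA-MB-453 the list had 2 lower with no filter and 5 lower without TWEAK replicate 2, where all genes had 178 and 1098 lower.

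Of 45 MYC-activated targets tested, 2 rose and 3 fell in SKBR3, and the median log2 fold change was 0.02. ODC1, the first enzyme of polyamine synthesis, rose from 194 ± 5.4 to 521 ± 29 CPM (log2 fold change 1.42, SE 0.063, adjusted p = 1.72e-07). TCOF1, a nucleolar factor of ribosomal RNA synthesis, rose from 247 ± 10 to 301 ± 21 CPM (0.28, SE 0.067, adjusted p = 0.029), a call lost without SKBR3 untreated replicate 1 or 2. The other 3 genes called were lower.

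SLC7A5, a large neutral amino acid transporter, fell from 770 ± 19 to 511 ± 24 CPM (log2 fold change -0.60, SE 0.058, adjusted p = 6.30e-05), and HK2, a hexokinase, from 135 ± 7.8 to 103 ± 11 CPM (-0.40, SE 0.083, adjusted p = 0.013). E2F2, a cell cycle transcription factor, fell by 0.25 (SE 0.079, adjusted p = 0.095), a call that 7 of 14 alternatives lost. The calls of ODC1, SLC7A5 and HK2 held in all 14. Without SKBR3 TWEAK replicate 2 the list had 7 lower, and all genes 1191. With the offset for GC content and exon length it had 6 lower, and all genes 1648. It had 6 higher with all 12 libraries in 1 fit, and 1 higher without SKBR3 untreated replicate 1 or 2. The change with TWEAK differed between the lines for ODC1 (difference 1.24, SE 0.079, adjusted p = 7.22e-08), for SLC7A5 (-0.54, SE 0.069, adjusted p = 1.54e-04) and for TCOF1 (0.29, SE 0.078, adjusted p = 0.068). That difference was not called for HK2 (-0.29, SE 0.092, edgeR adjusted p = 0.148) or E2F2 (-0.18, SE 0.085, adjusted p = 0.444).

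In MDA-MB-453 none of the 45 activated targets was called by edgeR, DESeq2 called 1 higher, and an unadjusted p under 0.05 was seen for 5 with a higher and 1 with a lower level. Positive log2 fold changes were seen for 36 of the 45, beside 50.8% of all genes tested, with a list median of 0.05. Without MDA-MB-453 TWEAK replicate 2, 12 were called higher and 1 lower, as the count over all genes rose from 192 to 1003 higher and from 31 to 1098 lower.

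MYC-repressed genes, mostly cell cycle inhibitors and differentiation genes, had 3 of 8 higher and 1 lower in SKBR3. CDKN2B, which encodes the CDK inhibitor p15, rose from 12.8 ± 0.52 to 34.3 ± 2.9 CPM (log2 fold change 1.42, SE 0.084, adjusted p = 1.51e-06). CDKN1A, which encodes p21, rose from 14.9 ± 1.0 to 27.1 ± 2.8 CPM (0.85, SE 0.095, adjusted p = 1.79e-04), and the stress-response gene GADD45A from 7.52 ± 0.32 to 11.2 ± 1.9 CPM (0.57, SE 0.13, adjusted p = 0.018). All 3 stayed called in all 14 alternatives.

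CEBPD, a C/EBP transcription factor, fell from 6.64 ± 0.34 to 4.96 ± 0.47 CPM (log2 fold change -0.43, SE 0.11, adjusted p = 0.047), a call lost without any 1 of SKBR3 untreated replicates 1, 2 and 3 and TWEAK replicate 1. The list had 2 lower with no filter, with the offset for GC content and exon length, with all 12 libraries in 1 fit, and without SKBR3 TWEAK replicate 2 or 3. All genes had 1648 lower with that offset, 1068 in 1 fit and 1191 without TWEAK replicate 2. In MDA-MB-453 none of 10 was called by edgeR or DESeq2, and 2 were lower at an unadjusted p under 0.05. There, 2 were called lower with no filter or without TWEAK replicate 2, and 1 with the offset for GC content and exon length or without untreated replicate 1. Over all genes 178 were lower with no filter, 1098 without TWEAK replicate 2 and 113 with the offset. The change with TWEAK differed between the lines for CDKN2B (difference 1.52, SE 0.16, adjusted p = 2.95e-05), CDKN1A (1.16, SE 0.13, adjusted p = 4.13e-05), GADD45A (0.69, SE 0.13, adjusted p = 0.0066) and CEBPD (-0.64, SE 0.15, adjusted p = 0.024).

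Of 8 partners of CDCA7 and CDCA7L, 1 was lower in SKBR3. HELLS, the chromatin remodeller that CDCA7 recruits, was at 29.6 ± 1.5 CPM in untreated and 24.6 ± 0.33 CPM in treated cells (log2 fold change -0.27, SE 0.070, adjusted p = 0.039). That call was lost in 6 of 14 alternatives, among them the offset for GC content and exon length and leaving out any 1 of SKBR3 untreated replicates 1 and 2 and TWEAK replicates 1 and 3. In MDA-MB-453, DNMT3B, a de novo DNA methyltransferase, was at 46.6 ± 1.8 and 41.0 ± 1.1 CPM (-0.19, SE 0.047, adjusted p = 0.092), a call lost in 7 of 14 alternatives, DESeq2 included. DNMT3B had a like log2 fold change of -0.20 in SKBR3 (SE 0.087, edgeR adjusted p = 0.238), where it was not called. The difference between the lines was -0.0074 for DNMT3B (SE 0.097) and -0.27 for HELLS (SE 0.078, edgeR adjusted p = 0.098). In SKBR3 the list had 2 lower with that offset, where all genes had 1648 lower. Without SKBR3 TWEAK replicate 2 it had 1 higher, where all genes had 1589 higher. In MDA-MB-453 it had 2 lower without TWEAK replicate 2, where all genes had 1098 lower.

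Of 24 genes of S phase and mitosis, 3 fell and 1 rose in SKBR3, and 20 of 24 had a negative log2 fold change, beside 51.7% of all genes tested. RRM2, a ribonucleotide reductase subunit, fell by 0.23 (SE 0.056, adjusted p = 0.032), the kinase CDK1 by 0.22 (SE 0.070, adjusted p = 0.096) and the replication licensing factor CDC6 by 0.21 (SE 0.055, adjusted p = 0.038). CDC20, an activator of the anaphase-promoting complex, rose by 0.27 (SE 0.073, adjusted p = 0.048), a call lost without SKBR3 untreated replicate 1 or 2. The 3 decreases were lost without SKBR3 untreated replicate 1 or 2 or TWEAK replicate 1, and with the replicate number as a block. That of CDK1 was also lost at an adjusted p of 0.05. Without TWEAK replicate 2 the list had 10 lower and 2 higher, as the count of lower genes over all genes rose from 599 to 1191. With the offset for GC content and exon length the list had 12 lower, and all genes 1648. It had 5 lower with no filter. With all 12 libraries in 1 fit it had 7 lower and 2 higher, where all genes had 1068 lower. In MDA-MB-453 none of 24 was called by edgeR or DESeq2, and 1 was lower at an unadjusted p under 0.05. There, 1 was called lower with no filter or without TWEAK replicate 2, where all genes had 178 and 1098 lower. The test of the difference between the lines called CDC20 (0.32, SE 0.080, edgeR adjusted p = 0.042). It did not call RRM2 (-0.20, SE 0.063, adjusted p = 0.147), CDK1 (-0.22, SE 0.085, adjusted p = 0.266) or CDC6 (-0.16, SE 0.064, adjusted p = 0.328).

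**Figure D4:**
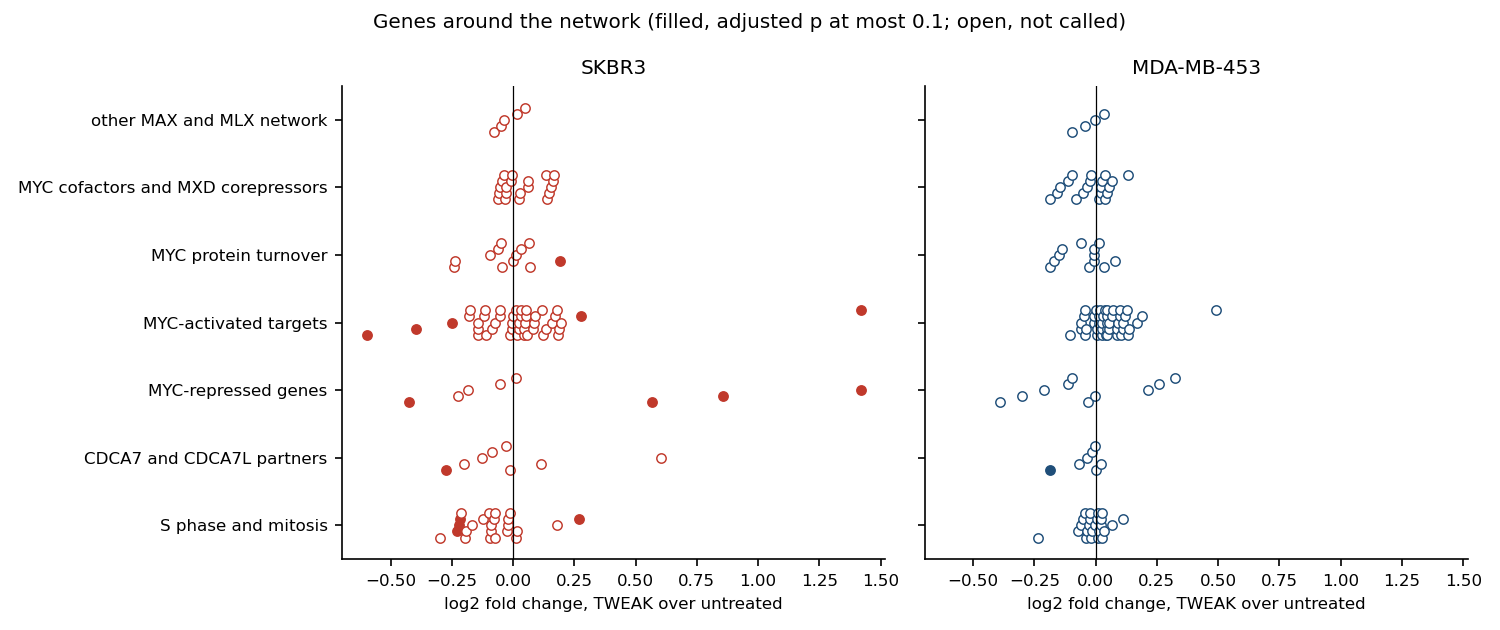
Log2 fold change, TWEAK over untreated (horizontal axis), of each gene tested in the 7 lists (rows) in SKBR3 and MDA-MB-453. Filled points were called at an adjusted p of at most 0.1 by edgeR and open points were not. In SKBR3 ODC1 and CDKN2B lie farthest to the right at 1.42 and SLC7A5 farthest to the left at -0.60, and in MDA-MB-453 DNMT3B is the only filled point.

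Profiles over the 12 libraries most like those of MYC, CDCA7 and CDCA7L were sought among 17201 genes by the root mean square difference of log2 CPM, with each gene centred on its mean. For MYC the nearest were PTGFRN (0.054), CDC16 (0.056) and CUL4A (0.056), which shared its step between the lines and its small change with TWEAK. For CDCA7 they were CA12 (0.071), NETO2 (0.079) and RAPGEF3 (0.088). CDCA7L had no close match, and the nearest were SLC38A3 (0.233), KCNMA1 (0.395) and RNF128 (0.450), beside a root mean square of 1.26 of CDCA7L itself about its mean. SLC38A3, an amino acid transporter, had a log2 fold change with TWEAK of -1.82 in SKBR3 and -0.08 in MDA-MB-453. The libraries of a group share their line and treatment, so these values describe 4 groups more than 12 independent points.

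Genes around MYC, CDCA7 and CDCA7L were described by their levels in the untreated lines. In untreated SKBR3, 44.8% of all genes tested were called higher and 42.4% lower than in untreated MDA-MB-453. Of the 5 nearest tested coding genes on each side of MYC, up to 4884 kb away, 4 were higher and 6 lower, with a median log2 fold change of -0.38. PVT1, the long non-coding RNA gene next to MYC, was chosen after its values were seen, which are therefore a description. It was at 9.36 to 10.5 CPM in untreated SKBR3 and 24.3 to 27.1 CPM in untreated MDA-MB-453 (log2 fold change -1.37, SE 0.073). Of the 5 nearest tested coding genes on each side of CDCA7, up to 1261 kb away, 3 were higher and 7 lower in SKBR3. Of those chosen in the same way around CDCA7L, up to 4058 kb away, 9 were higher and 1 lower. Nothing is read from these counts of neighbours, and those around MYC are near the shares over all genes.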

How the data were processed

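Poly-A RNA-seq counts per gene of 12 libraries were analysed. Per the methods of the study, the authors trimmed adaptors (Trimmomatic), aligned to hg38 (STAR) and counted reads per gene (featureCounts), and their deposited counts carry no normalisation. Tool versions, strand setting, treatment of multi-mapping reads and annotation release are not given in the sources used here, and the labels name a DNA library kit where the methods name a directional RNA kit, so reads of overlapping genes may be mixed. Each count column matched 1 labelled sample. Of 62696 identifiers, 61918 were in GENCODE release 44 as written, 754 only after the version was dropped, and 24 were unmatched.

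The counts were tested with edgeR 4.0.16 (R 4.3.3) after filterByExpr and TMM scaling, by two-sided quasi-likelihood tests without a replicate term, with Benjamini-Hochberg adjustment over all genes tested and a threshold of 0.1. TWEAK was compared with untreated cells within each line, the lines were compared by the interaction over 12 libraries, and the untreated lines were compared directly. Fitted changes use a prior count of 0.125. CPM used TMM factors over the 12 libraries, and CPM per kb divides by the union exon length. Likeness used log2 CPM with a prior count of 2. With 3 libraries against 3, an exact permutation test cannot give p under 0.1, so single genes were not tested that way. The scripts were checked on simulated counts.

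The members and lists were chosen with earlier results of these data known. Named were all 10 members, up to 3 called genes with the largest and 3 with the smallest change per list and line with a mean of at least 1 CPM, and 3 genes most like MYC, CDCA7 and CDCA7L. DNAH11, FNTB, PVT1 and 2 markers were added after their values were seen, so their values and p-values are a description too. Alternatives were DESeq2 1.42.0, its size factors in edgeR, no filter, at least 10 counts in every library, an adjusted p of 0.05, an offset for GC content and exon length, the replicate number as a block, all 12 libraries in 1 fit, and each library left out. Library totals were 24773003 to 35208304, the rarest member had 21 counts in 1 library, and counts carry no molecular identifiers. The authors' own fold changes were not used.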

Additional observations from a re-analysis of the deposited data

Results flagged for a closer look

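The change with TWEAK differed between SKBR3 and MDA-MB-453 for CDCA7L, by -1.65 on the log2 scale, and for CDCA7, by -0.36, in the test of that difference over the 12 libraries (edgeR, adjusted p at most 0.1). CDCA7L was lower with TWEAK in both lines, while CDCA7 was lower in SKBR3 and not called in MDA-MB-453 (log2 fold change 0.05, 95% interval -0.03 to 0.13). Both genes were on the list with these changes known, so the differences are a description.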

How the results depend on the processing

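CDCA7L stayed lower and called in both lines, and for the difference between lines, in every alternative run, and the 6 genes lower in untreated SKBR3 did so too. CDCA7 kept its sign in SKBR3 in all 14 alternatives and its call in 8, so that 1 member instead of 2 was lower at an adjusted p of 0.05. In the untreated comparison 2 members instead of 4 were higher with the offset for GC content and exon length, where MAX turned to -0.20 (adjusted p = 2.73e-05) and MNT was at 0.08 (adjusted p = 0.177). With that offset the log2 fold change with TWEAK in SKBR3 was -0.11 for MYC, against -0.06, and 0.03 for MNT, against 0.09. Neither gene was called. When 1 library was left out, that of MYC ran from -0.09 to -0.02. The cause of these shifts was not tested.

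Counts over all genes moved more. Genes lower in SKBR3 numbered 363 at an adjusted p of 0.05, 1648 with the GC and length offset and 1068 with all 12 libraries in 1 fit, against 599. With no filter, MDA-MB-453 had 302 higher and 178 lower genes, and 17, 113 and 13 were lower at an adjusted p of 0.05, with the offset and in 1 fit, against 192 and 31. For the difference between lines 95 genes were lower at 0.05, against 173.

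With 1 library left out, 686 to 1589 genes were higher and 240 to 1191 lower in SKBR3, and 1 to 2 members were lower. In MDA-MB-453 the ranges were 120 to 1003 and 10 to 1098, and for the difference between lines 304 to 645 and 90 to 505, with 1 to 2 members lower. The upper ends came without TWEAK replicate 2 of the line (SKBR3 for the difference). The counts also moved without SKBR3 untreated replicate 1 (284 lower), 2 (686 higher, 240 lower) or 3 (327 lower), and without MDA-MB-453 untreated replicate 2 (121 higher, 10 lower), untreated replicate 3 (120 higher, 11 lower) or TWEAK replicate 3 (11 lower). Where an arm has 1 library fewer, the spread is shared over the groups.

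The main fits had no replicate term. Deviations of same-numbered libraries correlated at -0.11 to 0.08 in SKBR3 and at 0.0012 to 0.051 in MDA-MB-453. With the replicate block, 387 genes and 1 member (CDCA7L) were lower in SKBR3. MDA-MB-453 then had 490 higher and 404 lower genes, against 192 and 31. For the difference between lines 101 genes and 1 member were lower. CDCA7 was no longer called in SKBR3 or for that difference. Of the named list genes, KRT19, FBXO32, E2F2, HELLS, CDC6, CDK1 and RRM2 in SKBR3 were then no longer called (adjusted p 0.105 to 0.207), so that 0 of the 24 genes of S phase and mitosis were lower. In MDA-MB-453, where the lists had none called beside DNMT3B, the block gave 4 MYC cofactors and corepressors, 4 turnover genes, 2 MYC-repressed genes, 1 activated target and 1 gene of S phase and mitosis lower, and 4 activated targets higher. The labels do not tie a replicate number to a day or culture. The study reports that its cell line experiments were repeated on separate days, and does not say which replicate number belongs to which day.

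Of 795 values recomputed with no library left out, 717 kept their direction and call or, for counts and untested values, stayed close to the value reported, and 1 turned (MAX, above).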
